A study of Mus musculus with 20 samples.

Results

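The genes described here are 8 of the 19938 genes with a name in a microarray table of mouse tumors: the chemokines Ccl17 and Ccl22 with their receptor Ccr4, and the chemokines Ccl2, Ccl7, Ccl8 and Ccl12 with the receptor Ccr2. They were listed as ligands and receptors of CCR4 and CCR2, all 8 were measured, and each was read by 1 probe set (10574226 for Ccl17, 10574213 for Ccl22, 10597420 for Ccr4, 10379511 for Ccl2, 10379518 for Ccl7, 10379535 for Ccl8, 10379530 for Ccl12 and 10590631 for Ccr2). The set was chosen by the log2 values of these same arrays, in which Ccl17, Ccl22, Ccl8 and Ccl12 were lower in tumors given the combined vectors, so every difference that uses those tumors is given below as a description with no test.

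The arrays came from tumors of LLC-1, a mouse cell line of Lewis lung carcinoma, implanted in C57Bl/6 hosts, so tumor and host cells are read together. Each tumor was injected with adenovirus, and there were 5 arrays per group. The groups received vectors for p19Arf and IFNbeta together (p19Arf+IFNbeta, called the combination here), for IFNbeta alone, for p19Arf alone, or for eGFP, a fluorescent protein that served as the control. p19Arf stabilises the tumor suppressor p53, and IFNbeta is a type I interferon. All groups, the eGFP control included, had 5 injections 48 h apart, each of 25 µl at a log10 viral load of 8, so no array shows a tumor free of adenovirus. Whether the combination received that load of each vector or in all, the promoter of the vectors, and the age and sex of the mice were not stated in the labels. The labels number the arrays within a group without saying that each is a separate mouse, so the p-values below measure the spread between these samples.

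CCL17 and CCL22 are the ligands of CCR4, a receptor carried by Th2 cells, regulatory T cells and other skin-homing T cells, and both are made mainly by dendritic cells and by macrophages exposed to IL-4 or IL-13, which signal through STAT6. CCL2, CCL7 and CCL12 bind CCR2, which draws inflammatory monocytes out of the bone marrow into tumors and inflamed tissue. CCL8 belongs to the same family of monocyte chemoattractant proteins, although mouse CCL8 is known mainly as a ligand of CCR8.

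The promoters of the 4 ligands with the lower values are shown here because they fall in 2 clusters of neighbouring genes, and the letters of the start-site regions can be set beside the values of each pair. Ccl22 and Ccl17 lie on mouse chromosome 8 with Cx3cl1 as the only protein-coding gene between them. Ccl2, Ccl7, Ccl11, Ccl12, Ccl8 and Ccl1 follow each other in that order on chromosome 11. The sequences are from RefSeq (GRCm38.p6, plus strand), run from 250 bases before to 50 bases after the gene start, and stand at chr8:94745434-94745733 for Ccl22, chr8:94810203-94810502 for Ccl17, chr11:82101595-82101894 for Ccl12 and chr11:82114935-82115234 for Ccl8. Capitals mark the motif matches named below.
Ccl22 promoter: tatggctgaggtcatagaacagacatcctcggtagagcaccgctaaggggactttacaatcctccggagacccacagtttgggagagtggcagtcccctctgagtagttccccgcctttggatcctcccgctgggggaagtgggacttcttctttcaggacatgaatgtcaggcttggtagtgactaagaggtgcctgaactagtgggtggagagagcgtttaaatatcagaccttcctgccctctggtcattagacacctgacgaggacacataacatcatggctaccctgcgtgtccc
Ccl17 promoter: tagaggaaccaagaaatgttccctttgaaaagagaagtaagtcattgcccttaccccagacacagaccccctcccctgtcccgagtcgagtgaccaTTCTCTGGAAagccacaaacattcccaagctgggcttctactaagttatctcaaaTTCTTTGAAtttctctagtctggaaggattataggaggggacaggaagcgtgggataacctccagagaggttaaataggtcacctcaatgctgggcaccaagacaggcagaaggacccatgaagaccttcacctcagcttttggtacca
Ccl12 promoter: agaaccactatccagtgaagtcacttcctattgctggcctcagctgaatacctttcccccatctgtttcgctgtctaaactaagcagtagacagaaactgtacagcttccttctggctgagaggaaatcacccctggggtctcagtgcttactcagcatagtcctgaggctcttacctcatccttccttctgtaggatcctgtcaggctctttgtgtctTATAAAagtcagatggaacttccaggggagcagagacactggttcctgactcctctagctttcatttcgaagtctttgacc
Ccl8 promoter: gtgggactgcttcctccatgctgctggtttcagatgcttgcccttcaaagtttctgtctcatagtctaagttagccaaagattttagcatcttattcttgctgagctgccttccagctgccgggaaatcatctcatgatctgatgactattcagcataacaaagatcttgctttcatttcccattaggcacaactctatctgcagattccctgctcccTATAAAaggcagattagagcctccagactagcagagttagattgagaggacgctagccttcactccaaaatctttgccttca

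The promoter table held 6 of the 8 genes, the other 2 of them being Ccr4 (chromosome 9, between Tmppe and Trim71) and Ccr2 (also on chromosome 9). Motifs of 6 factors or elements were searched in these 300 bases. The STAT6 motif TTCNNNNGAA, searched on both strands and found in 6.95% of all 32851 promoters of the table, matched in the Ccl17 promoter as TTCTCTGGAA, with its first base at -154 from the start. The shorter STAT motif TTCNNNGAA (both strands, 8.3% of promoters) matched in Ccl17 as TTCTTTGAA at -99, and the 2 matches do not overlap. The TATA box letters TATAAA (forward strand, 8.32% of promoters) stood at -31 in Ccl12 and at -32 in Ccl8, so both held that element at nearly the same place. The AP-1 motif TGANTCA (both strands, 7.81%) matched in Ccr4 as TGAGTCA at -143. The interferon motif GAAANNGAAA (both strands, 3.44%) and the NF-kB motif (both strands, 4.51%) had no match in the 6 promoters, and the Ccl22 and Ccr2 promoters held none of the 6 motifs. A match describes letters in this window and is not evidence of binding.

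Values are log2 expression values as deposited, and every difference below is on that log2 scale. Array medians ran from 7.49 to 7.61, the standard deviation of the values on an array (its spread) from 1.99 to 2.15, and correlations between arrays of a group from 0.951 to 0.994. The table has no detection call, and the number of arrays limits the precision. IFNbeta replicate 3 stood apart from its group, with a skin epidermis marker score of 8.98 against 6.43 to 6.63 on the other IFNbeta arrays. Several differences of IFNbeta tumors that it moved by over 1.5 times are also given without it. The probe sets for the vector genes read Cdkn2a at 7.55 ± 0.21 in the combination, 7.38 ± 0.09 in IFNbeta, 7.58 ± 0.19 in p19Arf and 7.43 ± 0.07 in eGFP tumors. Ifnb1 read 6.03 ± 0.23, 6.21 ± 0.26, 6.00 ± 0.23 and 6.10 ± 0.14 in the same order (SD, n = 5 each), and whether these probes lie inside the vector inserts is not given, so they do not check the labels. Among genes of the labelled tissue, the mesenchymal gene Vim averaged 13.53 to 13.71 over the groups, while the lung secretory genes Sftpc and Scgb1a1 averaged 5.96 to 6.36 and 3.85 to 3.98, near the dim end of a table that ran from 2.33 to 14.7. These are whole tumors, so fewer cells of a type and less RNA per cell cannot be told apart in any value below.

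Ccl17, the CCR4 ligand known as TARC, had its lowest mean in the combination. Its values were 7.45, 7.45, 7.42, 7.57 and 7.59 in the combination, and 8.08, 8.70, 7.02, 7.48 and 7.89 in IFNbeta tumors. They were 7.65, 7.36, 7.83, 7.61 and 7.72 in p19Arf tumors, and 7.86, 8.45, 8.21, 8.34 and 8.14 in eGFP tumors. All 5 combination arrays and all 5 p19Arf arrays lay below the lowest eGFP array, while the IFNbeta arrays spread over the whole range and held both the lowest and the highest value of the 20. The group means were 7.49 ± 0.08 in the combination, 7.83 ± 0.63 in IFNbeta, 7.64 ± 0.17 in p19Arf and 8.20 ± 0.22 in eGFP tumors (SD, n = 5 each). As a description, the combination was 0.70 below eGFP, a ratio of 0.61 (difference -0.70, SE 0.20), 0.34 below IFNbeta (difference -0.34, or -0.12 without IFNbeta replicate 2 and -0.54 without IFNbeta replicate 3) and 0.14 below p19Arf (difference -0.14).

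Ccl22, the other CCR4 ligand, known as MDC, followed the same order of group means. Its values were 7.62, 7.80, 7.90, 7.64 and 7.51 in the combination, and 7.93, 8.28, 7.68, 7.75 and 8.16 in IFNbeta tumors. They were 7.71, 7.70, 8.07, 7.94 and 8.26 in p19Arf tumors, and 8.23, 8.28, 8.13, 8.16 and 8.02 in eGFP tumors. The combination arrays all lay below the eGFP arrays, 3 arrays of each single vector did so too, and the 2 single-vector groups covered much the same range. The means were 7.69 ± 0.15 in the combination, 7.96 ± 0.26 in IFNbeta, 7.94 ± 0.24 in p19Arf and 8.16 ± 0.10 in eGFP tumors (SD, n = 5 each). The combination differed from eGFP by -0.47 (SE 0.12, ratio 0.72), from IFNbeta by -0.27 and from p19Arf by -0.24.

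Ccr4, the receptor of both, showed no such order. Its means were 6.58 ± 0.14 in the combination, 6.44 ± 0.13 in IFNbeta, 6.58 ± 0.13 in p19Arf and 6.49 ± 0.08 in eGFP tumors (SD, n = 5 each), and all 4 groups overlapped within 6.24 to 6.82. Its probe set was dimmer than that of most genes, at percentile 23.3 of the mean levels. The combination differed from eGFP by 0.09 (SE 0.09).

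Among the CCR2 family ligands, Ccl8 and Ccl12 had the lower values. Ccl8 read 10.34, 10.65, 10.61, 10.08 and 10.62 in the combination, and 10.92, 10.96, 10.38, 10.62 and 10.47 in IFNbeta tumors. It read 11.18, 10.74, 10.75, 10.39 and 11.03 in p19Arf tumors, and 10.81, 11.00, 11.22, 11.19 and 10.83 in eGFP tumors. The combination arrays all lay below the eGFP arrays, and 3 of 5 arrays of each single vector did. The means were 10.46 ± 0.25 in the combination, 10.67 ± 0.26 in IFNbeta, 10.82 ± 0.31 in p19Arf and 11.01 ± 0.19 in eGFP tumors (SD, n = 5 each), with the combination at -0.55 (SE 0.15, ratio 0.68) from eGFP, -0.21 from IFNbeta and -0.36 from p19Arf. The difference from IFNbeta was -0.11 without combination replicate 4, -0.04 after quantile normalization and -0.01 with the array spread in the model.

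Ccl12, known as MCP-5 in mice, had the lowest ratio to eGFP of the 8 genes in the combination, 0.60. It read 7.94, 8.31, 7.60, 7.58 and 8.01 in the combination, and 8.18, 8.56, 7.64, 8.37 and 8.59 in IFNbeta tumors. It read 8.16, 8.04, 7.87, 7.54 and 8.49 in p19Arf tumors, and 8.08, 9.30, 8.17, 8.82 and 8.71 in eGFP tumors. The eGFP arrays were widely spread, 4 of 5 combination arrays lay below all of them, and combination replicate 2 overlapped them. The means were 7.89 ± 0.31 in the combination, 8.27 ± 0.39 in IFNbeta, 8.02 ± 0.35 in p19Arf and 8.62 ± 0.50 in eGFP tumors (SD, n = 5 each), and the combination differed from eGFP by -0.73 (SE 0.22), from IFNbeta by -0.38 and from p19Arf by -0.13. With the array spread in the model the difference was -0.44 from eGFP and -0.06 from IFNbeta. The difference from p19Arf ran from -0.25 without p19Arf replicate 4 to -0.01 without p19Arf replicate 5.

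Ccl2, the main monocyte chemoattractant MCP-1, was among the brightest signals of the 8 probe sets and differed little. It read 11.83, 12.21, 12.01, 12.35 and 11.84 in the combination, and 12.08, 12.28, 12.17, 12.21 and 12.58 in IFNbeta tumors. It read 12.03, 11.95, 11.97, 12.04 and 12.13 in p19Arf tumors, and 12.22, 12.27, 11.90, 12.30 and 12.55 in eGFP tumors. The p19Arf arrays were the tightest group, and 4 of 5 IFNbeta arrays lay above all of them. The combination overlapped both, with 3 of 5 arrays below every IFNbeta array. The means were 12.05 ± 0.23 in the combination, 12.26 ± 0.19 in IFNbeta, 12.02 ± 0.07 in p19Arf and 12.25 ± 0.23 in eGFP tumors (SD, n = 5 each).

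Ccl7, known as MCP-3, had the same order of means as Ccl2. It read 10.50, 11.01, 10.57, 11.01 and 10.57 in the combination, and 10.87, 10.92, 11.05, 10.82 and 11.17 in IFNbeta tumors. It read 10.54, 11.00, 10.52, 10.51 and 10.57 in p19Arf tumors, and 10.74, 10.83, 10.71, 10.89 and 11.05 in eGFP tumors. The combination arrays fell in a low cluster of 3 and a high pair, and p19Arf replicate 2 stood above the other p19Arf arrays. The means were 10.73 ± 0.26 in the combination, 10.97 ± 0.14 in IFNbeta, 10.63 ± 0.21 in p19Arf and 10.84 ± 0.13 in eGFP tumors (SD, n = 5 each), so the combination differed from eGFP by -0.11 (SE 0.12), against -0.20 (SE 0.12) for Ccl2. After quantile normalization these were 0.06 for Ccl7 and -0.04 for Ccl2.

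Ccr2, the receptor that marks inflammatory monocytes, differed more within groups than between them. It read 9.77, 9.64, 9.22, 8.08 and 8.47 in the combination, 9.63, 9.29, 8.69, 9.43 and 9.19 in IFNbeta, 9.56, 8.53, 9.05, 8.99 and 8.80 in p19Arf, and 9.09, 9.19, 9.07, 8.82 and 8.91 in eGFP tumors. The combination held both the lowest and the highest of the 20 arrays and the eGFP arrays stayed close together. The means were 9.04 ± 0.74 in the combination, 9.24 ± 0.35 in IFNbeta, 8.99 ± 0.38 in p19Arf and 9.02 ± 0.15 in eGFP tumors (SD, n = 5 each), and the combination differed from eGFP by 0.02 (SE 0.25). That difference was 0.26 without combination replicate 4, -0.16 without combination replicate 1 and 0.41 with the array spread in the model. The combination differed from IFNbeta by -0.21, which was -0.35 without IFNbeta replicate 3, 0.03 without combination replicate 4 and 0.23 with the array spread in the model.

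**Figure D1:**
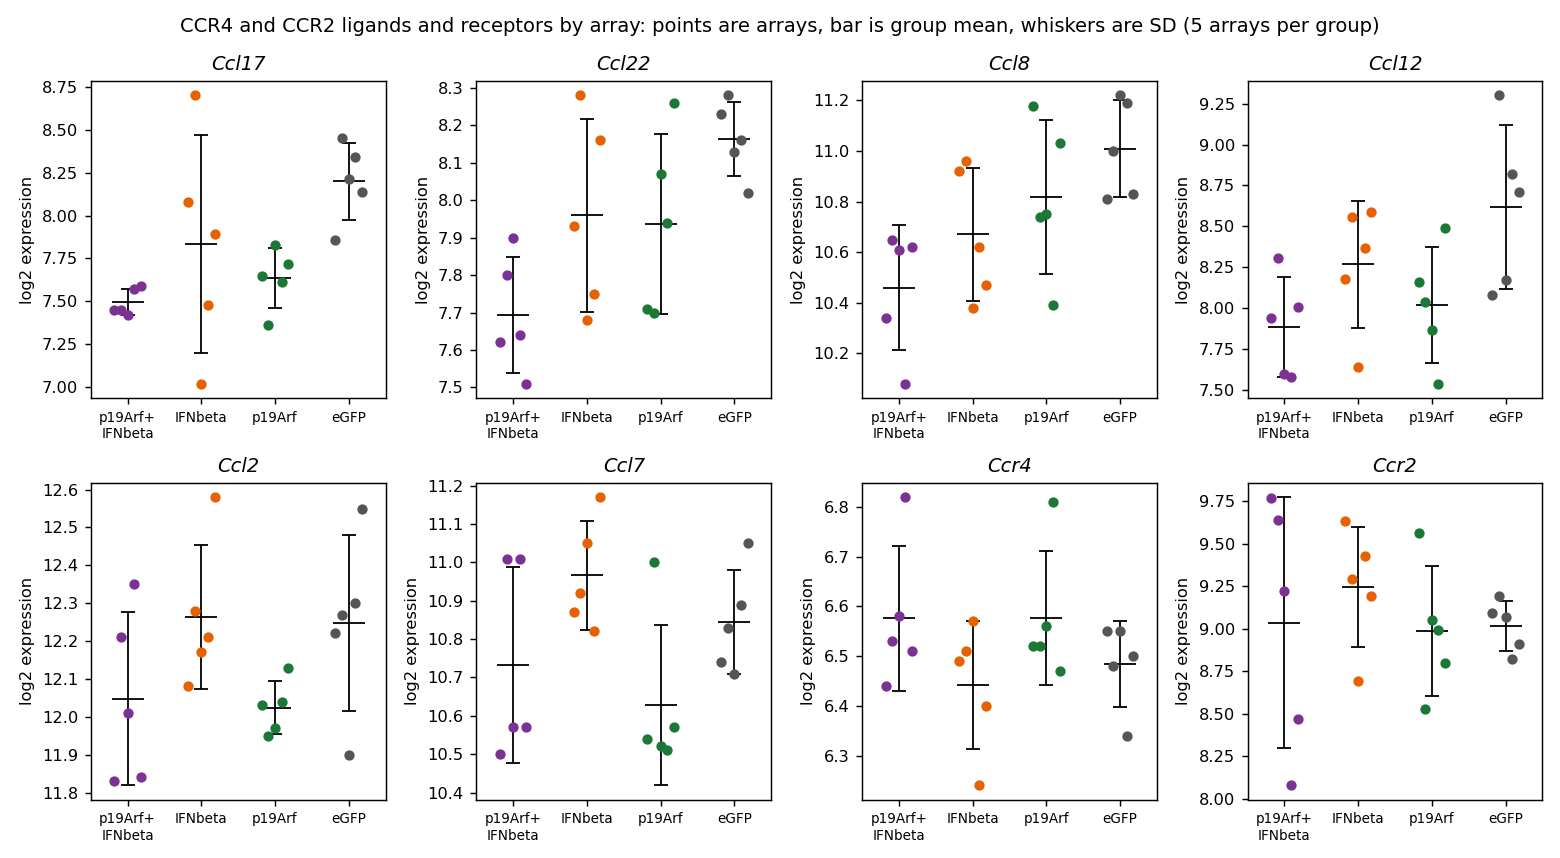
Log2 expression of the 8 genes on each array, with the groups p19Arf+IFNbeta, IFNbeta, p19Arf and eGFP along the horizontal axis; points are arrays, bars are group means and whiskers are SD (5 arrays per group), and the vertical axes differ between panels and do not start at 0. The combination arrays of Ccl17, Ccl22 and Ccl8 all sit below the eGFP arrays, and the Ccr2 points of the combination span 8.08 to 9.77.

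In order of their means, Ccl17, Ccl22 and Ccl12 ran from the combination (lowest) through p19Arf and IFNbeta to eGFP, and Ccl8 ran from the combination through IFNbeta and p19Arf to eGFP. Ccl2 and Ccl7 ran from p19Arf through the combination and eGFP to IFNbeta. Ccr2 ran from p19Arf through eGFP and the combination to IFNbeta, and Ccr4 from IFNbeta through eGFP to p19Arf and the combination, which were level. Neighbouring groups in these orders overlapped in range for all 8 genes. Between the combination and eGFP 3 of the 8 genes were lower with no overlap, beside 0.547% of all genes, and 6 of 8 were lower in mean, beside 45% of all genes. Because the choice of the genes used this difference, nothing is read from those counts. The interaction, the effect of adding p19Arf to IFNbeta minus its effect over eGFP, was between -0.18 and 0.22 for the 8 genes, with SE from 0.13 to 0.36, and is likewise a description. For Ccl17 it was 0.22 (SE 0.28), or 0.02 without IFNbeta replicate 3, 0.44 without IFNbeta replicate 2 and -0.13 with array weights. For Ccl12 it was 0.22 (SE 0.31), or 0.05 without eGFP replicate 2, 0.06 without IFNbeta replicate 3 and 0.35 without eGFP replicate 1. For Ccr2 it was -0.18 (SE 0.36), or 0.06 without combination replicate 4 and -0.32 without IFNbeta replicate 3.

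Differences that do not use the combination arrays were tested with limma, with Benjamini-Hochberg adjustment over all 19938 genes. The tests against eGFP share the eGFP arrays with the combination's difference from eGFP, so they are not independent of the choice of the genes. Nothing is therefore read from their counts of the 8 genes. IFNbeta against p19Arf shares no array with that difference. Whether the choice also set the combination against the single vectors is not stated, so this test may not be independent of it either. For p19Arf against eGFP 7 of the 8 genes were lower in mean, beside 45.6% of all genes, with a median difference of -0.22 beside 0.018 over all genes. None passed at an adjusted p under 0.05, beside 0% of all genes, and 2 of 8 were lower at an unadjusted p under 0.05, beside 4.4% of all genes.

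Those 2 were Ccl17 and Ccl12. Ccl17 was 7.64 ± 0.17 in p19Arf and 8.20 ± 0.22 in eGFP tumors (SD, n = 5 each), which is a difference of -0.56 (SE 0.20, 95% interval -0.97 to -0.16, limma adjusted p = 0.661). It was lower in 5 of 5 p19Arf arrays than in any eGFP array, a lack of overlap that 0.441% of all genes showed. Ccl12 was 8.02 ± 0.35 in p19Arf and 8.62 ± 0.50 in eGFP tumors (SD, n = 5 each), which is a difference of -0.60 (SE 0.22, 95% interval -1.05 to -0.14, limma adjusted p = 0.661), with 3 of 5 p19Arf arrays below all eGFP arrays. The difference for Ccl12 was -0.43 without eGFP replicate 2, the array with its highest value, and -0.33 with the array spread in the model.

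The other ligands differed by less in p19Arf tumors. Ccl22 gave -0.23 (SE 0.12, limma adjusted p = 0.661), Ccl2 -0.22 (SE 0.12), Ccl7 -0.22 (SE 0.12) and Ccl8 -0.19 (SE 0.15), and none of these had an unadjusted p under 0.05. These differences depended on the setting. Quantile normalization gave -0.08 for Ccl7, -0.11 for Ccl2 and -0.07 for Ccl8, array weights gave -0.09 for Ccl22, and the array spread in the model gave -0.02 for Ccl8. Without p19Arf replicate 4 Ccl8 was at -0.08, and without p19Arf replicate 2 Ccl7 was at -0.31. The receptors were close to eGFP, Ccr4 at 0.09 (SE 0.09, 95% interval -0.09 to 0.28) and Ccr2 at -0.03 (SE 0.25), and Ccr2 turned to 0.02 when the arrays were quantile normalized and to 0.33 when the model held their spread.

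In IFNbeta against eGFP 5 of the 8 genes were lower in mean, beside 55.8% of all genes, and 1 of 8 was lower at an unadjusted p under 0.05, beside 1.45% of all genes. None passed at an adjusted p under 0.05, beside 0% of all genes, and the smallest adjusted p of any gene was 0.836. The 1 gene was Ccl8, at 10.67 ± 0.26 in IFNbeta and 11.01 ± 0.19 in eGFP tumors (SD, n = 5 each), which is a difference of -0.34 (SE 0.15, 95% interval -0.65 to -0.03, limma adjusted p = 1). Ccl17 differed by -0.36 (SE 0.20, 95% interval -0.77 to 0.04), by -0.16 without IFNbeta replicate 3 and by -0.58 without IFNbeta replicate 2, so its size rests on these 2 arrays. Ccl12 gave -0.35 (SE 0.22), or -0.19 without IFNbeta replicate 3 and -0.18 without eGFP replicate 2. Ccl22 gave -0.20 (SE 0.12), or -0.13 without IFNbeta replicate 3.

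Ccl2 and Ccl7 were not lower with IFNbeta alone. Ccl2 differed from eGFP by 0.02 (SE 0.12, 95% interval -0.23 to 0.26), or by 0.04 without IFNbeta replicate 3. Ccl7 differed by 0.13 (SE 0.12, 95% interval -0.12 to 0.37). Ccr2 was at 0.23 (SE 0.25), or 0.37 without IFNbeta replicate 3 and 0.13 without IFNbeta replicate 1. Ccr4 was at -0.04 (SE 0.09), or -0.08 without IFNbeta replicate 3, and turned to 0.04 with quantile-normalized values.

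Between the single vectors, 6 of the 8 genes were higher in mean in IFNbeta than in p19Arf tumors, beside 45.5% of all genes. None passed at an adjusted p under 0.05, beside 0.0251% of all genes, and 1 was higher at an unadjusted p under 0.05, beside 8.48% of all genes. That gene was Ccl7, at 10.97 ± 0.14 in IFNbeta and 10.63 ± 0.21 in p19Arf tumors (SD, n = 5 each), which is a difference of 0.34 (SE 0.12, 95% interval 0.09 to 0.59, limma adjusted p = 0.201). It was 0.43 without p19Arf replicate 2, and 0.37 with array weights (limma adjusted p = 0.0143), the lowest adjusted p among its alternatives, whose highest was 0.593. With array weights 4495 of 19938 genes passed in this comparison, so that pass is not particular to Ccl7. Ccl2 gave 0.24 (SE 0.12, limma adjusted p = 0.246). Ccl17 gave 0.20 (SE 0.20), which was 0.40 without IFNbeta replicate 3 and -0.02 without IFNbeta replicate 2, and Ccl22 gave 0.03 (SE 0.12), whose sign turned under several settings. Ccl8 ran the other way at -0.15 (SE 0.15), Ccl12 was at 0.25 (SE 0.22), Ccr2 at 0.26 (SE 0.25) and Ccr4 at -0.13 (SE 0.09). Without IFNbeta replicate 3 Ccl8 was at -0.08, Ccl12 at 0.40 and Ccr2 at 0.39. With the array spread in the model Ccl12 was at -0.05 and Ccr2 at -0.14, and Ccl7 was at 0.20 and Ccl2 at 0.15 after quantile normalization.

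**Figure D2:**
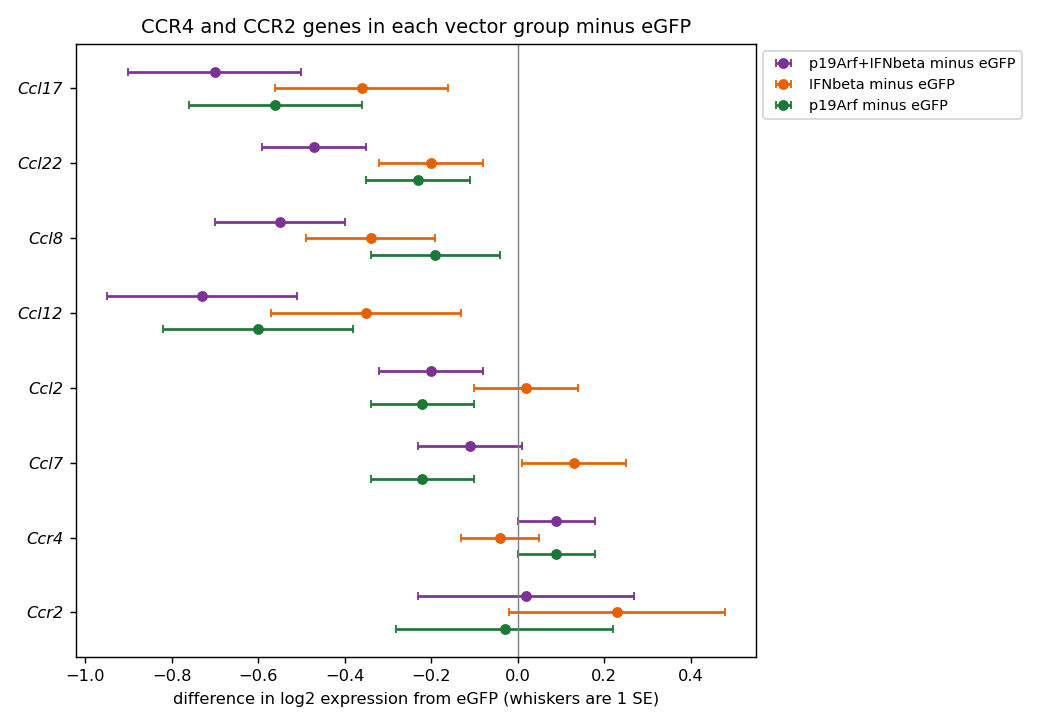
Difference in log2 expression between each vector group and eGFP for the 8 genes, with p19Arf+IFNbeta above IFNbeta and p19Arf in each row; points are differences of means of 5 arrays and whiskers are 1 SE from the linear model. Ccl17, Ccl22, Ccl8 and Ccl12 lie left of 0 for all 3 vector groups, which share the eGFP arrays, and Ccl2 and Ccl7 lie near 0 in IFNbeta tumors.

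Most other CC chemokines were higher in mean in the combination. Of 13 measured, 11 were higher and 2 lower in mean in the combination than in eGFP tumors (median difference 0.09), 6 were higher and 7 lower in p19Arf (median -0.03), and 5 were higher and 8 lower in IFNbeta (median -0.04). The medians over all genes were 0.021, 0.018 and -0.017. Ccl3, an inflammatory chemokine of macrophages, was at 11.72 ± 0.59 in the combination, 11.16 ± 0.19 in IFNbeta, 10.67 ± 0.36 in p19Arf and 10.77 ± 0.24 in eGFP tumors (SD, n = 5 each). Ccl19, a CCR7 ligand, differed by 0.18 (SE 0.12) in p19Arf against eGFP, Ccl1, the CCR8 ligand beside Ccl8 in the genome, by 0.12 (SE 0.11) in p19Arf and by -0.18 (SE 0.11) in IFNbeta, and Ccl28 by -0.16 (SE 0.10) in IFNbeta. None of the 13 passed the limma test at an adjusted p under 0.05, nor at an unadjusted p under 0.05 in either single vector against eGFP. In the combination 2 were higher at an unadjusted p under 0.05 than in eGFP, 5 than in IFNbeta and 2 than in p19Arf tumors. In each of these comparisons 0 were lower, and no share over all genes is at hand.

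Of 12 other chemokine receptors 7 were higher and 5 lower in p19Arf than in eGFP tumors, and 5 were higher and 7 lower in IFNbeta, with medians of 0.03 and 0. Ccr7, which guides dendritic cells and naive T cells to lymph nodes, was 8.66 ± 0.13 in p19Arf and 8.92 ± 0.25 in eGFP tumors (SD, n = 5 each), which is a difference of -0.26 (SE 0.11, limma adjusted p = 0.661). Ccr1, a receptor of monocytes and neutrophils, differed by -0.47 (SE 0.24, limma adjusted p = 0.661). Ccr8 was dim and differed by 0.06 (SE 0.13) in p19Arf and 0.02 (SE 0.13) in IFNbeta against eGFP.

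Genes of the pathway that induces Ccl17 and Ccl22 in macrophages, and other targets of it, had means on both sides of eGFP, and none passed an adjusted p under 0.05. In the list of the IL-4, IL-13 and STAT6 pathway and its macrophage targets, 8 of 20 genes were higher and 12 lower in p19Arf than in eGFP tumors (median -0.04), and 9 were higher and 11 lower in IFNbeta (median -0.02). Cd209a, a lectin of monocyte-derived dendritic cells, was 7.47 ± 0.39 in p19Arf and 7.93 ± 0.26 in eGFP tumors (SD, n = 5 each), which is a difference of -0.47 (SE 0.17, limma adjusted p = 0.661). Arg1, the arginase of alternatively activated macrophages, differed the other way by 0.44 (SE 0.25) and the kinase gene Jak1 by -0.28 (SE 0.16). In the combination 10 of the 20 were higher and 10 lower than in eGFP tumors (median 0.01). Cd209a averaged 7.47 ± 0.18 there, Mgl2 8.50 ± 0.17 and Arg1 10.31 ± 0.34. Their eGFP means were 7.93 ± 0.26, 9.04 ± 0.14 and 9.69 ± 0.57 (SD, n = 5 each). In IFNbeta against eGFP tumors, the lectin gene Mgl2 differed by -0.48 (SE 0.23), the nuclear receptor gene Pparg by 0.32 (SE 0.12, limma adjusted p = 1) and the cytokine gene Il13 by -0.21 (SE 0.10).

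Tslp, an epithelial cytokine that induces Ccl17 in dendritic cells, was among the genes with a lower mean in p19Arf tumors. It was 7.34 ± 0.24 in p19Arf and 7.82 ± 0.28 in eGFP tumors (SD, n = 5 each), which is a difference of -0.47 (SE 0.15, limma adjusted p = 0.661), and Il33, an alarmin, differed by -0.34 (SE 0.14, limma adjusted p = 0.661). In the combination Tslp averaged 7.33 ± 0.22 and in IFNbeta 7.84 ± 0.28. The GM-CSF, TSLP and stromal list as a whole had 4 genes higher and 4 lower in p19Arf, with a median of -0.03, and 7 higher and 1 lower in IFNbeta, with a median of 0.06. Il7r, which pairs with the TSLP receptor, differed by 0.55 (SE 0.17, limma adjusted p = 1) in IFNbeta against eGFP.

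A list of 14 inflammatory and NF-kB genes holds inducers of Ccl2 and Ccl7 such as Tnf and Il1b, and also inhibitors of NF-kB (Nfkbia, Tnfaip3) and other targets (Icam1, Ptgs2). Of these 9 were higher and 5 lower in p19Arf than in eGFP tumors (median 0.01) and 10 were higher and 4 lower in IFNbeta (median 0.08). In the combination 12 were higher and 2 lower than in eGFP tumors (median 0.22). The score of this list was 9.57 (9.34 to 9.87) in the combination and 9.28 (9.15 to 9.37) in eGFP tumors. Ptgs2, the inducible cyclooxygenase, differed by -0.32 (SE 0.20) in p19Arf and by 0.25 (SE 0.20) in IFNbeta, and Rela by -0.19 (SE 0.10) in p19Arf. Of 22 type I interferon response genes 21 were higher in IFNbeta than in eGFP tumors, 17 of them at an unadjusted p under 0.05, beside 1.34% of all genes, and none at an adjusted p under 0.05 (median 0.41). Usp18, an interferon-induced protease, differed by 0.59 (SE 0.17, limma adjusted p = 1) there. The interferon list score was 9.98 (9.76 to 10.48) in IFNbeta tumors, with IFNbeta replicate 3 the highest. It was 9.61 (9.37 to 9.77) in the combination and 9.57 (9.53 to 9.65) in eGFP tumors. In p19Arf 7 of the 22 were higher and 15 lower (median -0.08), with Cxcl10 at -0.45 (SE 0.18, limma adjusted p = 0.661). In the combination, which also received the IFNbeta vector, 11 were higher and 11 lower than in eGFP tumors (median 0.01), and 21 of 22 were lower than in IFNbeta tumors (median -0.38).

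Genes of regulatory and Th2 T cells, which carry CCR4, had means on both sides of eGFP in each vector group. Of 15 such genes 6 were higher and 9 lower in p19Arf than in eGFP tumors (median -0.06), beside 45.6% of all genes lower. In IFNbeta 8 were higher and 7 lower (median 0.05), and in the combination 10 were higher and 5 lower (median 0.03). The co-receptor gene Cd4 was 7.59 ± 0.23 in p19Arf and 7.89 ± 0.11 in eGFP tumors (SD, n = 5 each), which is a difference of -0.30 (SE 0.10, limma adjusted p = 0.661). Il2ra, the high-affinity IL-2 receptor chain, differed by -0.41 (SE 0.17, limma adjusted p = 0.661) and Foxp3, the regulatory T cell factor, stood at 7.85 ± 0.11 in p19Arf and 7.84 ± 0.15 in eGFP tumors (SD, n = 5 each). In IFNbeta against eGFP tumors, Ptgdr2, a Th2 cell receptor, differed by -0.23 (SE 0.10, limma adjusted p = 1) and Il10 by 0.29 (SE 0.14, limma adjusted p = 1).

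**Figure D3:**
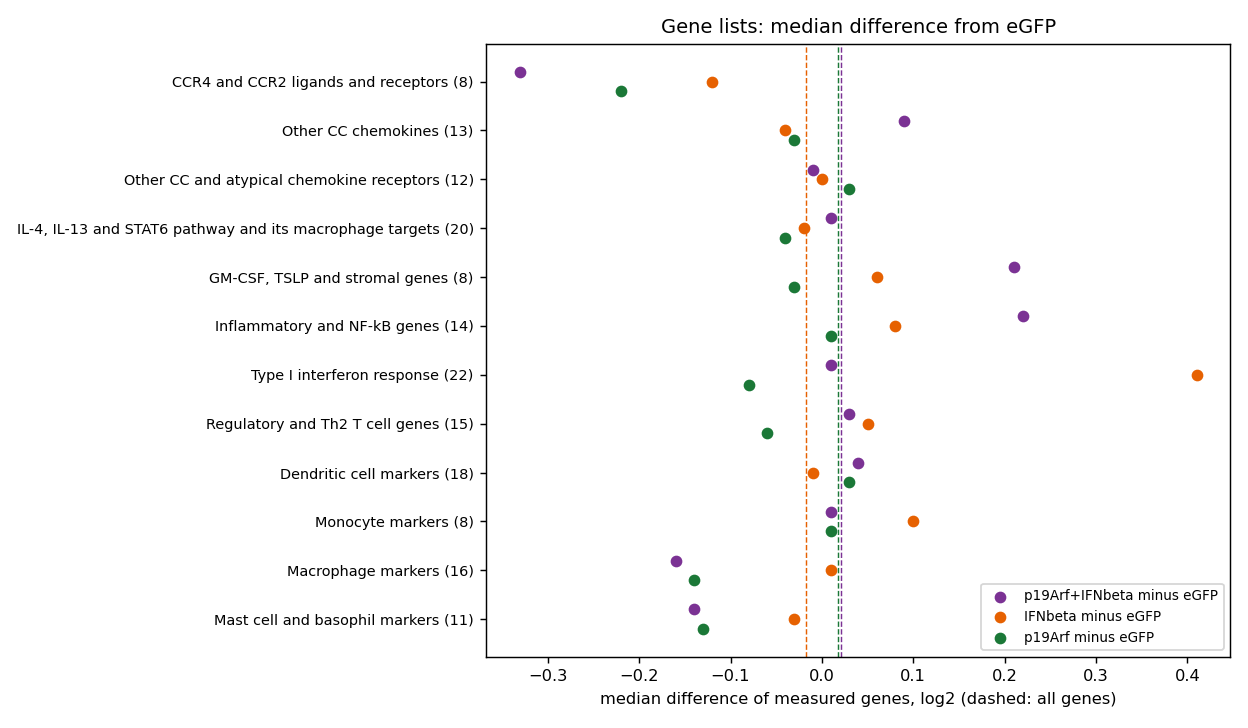
Median log2 difference from eGFP of the measured genes in each list (their number in brackets), with points for p19Arf+IFNbeta, IFNbeta and p19Arf and dashed lines at the median of all genes in each comparison. The 8 CCR4 and CCR2 genes have medians of -0.33, -0.12 and -0.22, the first fixed by their choice, while the type I interferon list stands at 0.41 in IFNbeta tumors.

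Scores of markers of the cells that make these chemokines or carry their receptors overlapped between the groups. The mean log2 score of 18 dendritic cell markers was 8.52 (8.46 to 8.62) in the combination, 8.53 (8.38 to 8.63) in IFNbeta, 8.49 (8.40 to 8.54) in p19Arf and 8.51 (8.38 to 8.66) in eGFP tumors. The score of 16 macrophage markers was 10.10 (9.80 to 10.36) in the combination, 10.27 (10.09 to 10.42) in IFNbeta, 10.11 (9.82 to 10.34) in p19Arf and 10.26 (10.09 to 10.44) in eGFP tumors, and 14 of the 16 were lower in p19Arf than in eGFP tumors. In the combination 6 of the 16 were higher and 10 lower than in eGFP tumors, and in IFNbeta 9 were higher and 7 lower. At a limma unadjusted p under 0.05 against eGFP, 4 were lower and 0 higher in the combination. In p19Arf 1 was lower and 0 higher, and in IFNbeta 0 were lower and 1 higher. The score was lower in mean than in eGFP in the combination and in p19Arf, with overlapping ranges, and close to eGFP in IFNbeta. The part of macrophage RNA in the values of Ccl17, Ccl22, Ccl8 and Ccl12 was not tested. Within that list Lyz2, a lysozyme of macrophages and neutrophils, averaged 12.54, 12.70, 12.63 and 12.87, and Fn1, in the monocyte list, averaged 12.64, 12.98, 12.73 and 13.04 in the combination, IFNbeta, p19Arf and eGFP. The score of 8 monocyte markers was 9.28 (9.01 to 9.54) in the combination, 9.39 (9.30 to 9.55) in IFNbeta, 9.19 (9.06 to 9.39) in p19Arf and 9.20 (9.03 to 9.50) in eGFP tumors.

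Muscle and mast cell markers had means on 1 side of eGFP for most genes, with overlapping scores and none past an adjusted p under 0.05. All 12 skeletal muscle markers were higher in mean in each vector group than in eGFP. In IFNbeta 9 of the 12 were higher at a limma unadjusted p under 0.05, beside 1.34% of all genes. In p19Arf 0 were, beside 567 of 19938 genes. In the combination 9 of the 12 also were, with no share over all genes at hand. Their score was 8.20 (7.27 to 8.90) in the combination, 8.21 (7.20 to 9.30) in IFNbeta, 7.92 (7.19 to 8.74) in p19Arf and 7.40 (7.19 to 7.83) in eGFP tumors. Of 11 mast cell and basophil markers 10, 8 and 8 were lower in mean than in eGFP in the combination, IFNbeta and p19Arf. The shares over all genes were 45%, 55.8% and 45.6%. At a limma unadjusted p under 0.05, 3 of the 11 were lower and 0 higher in p19Arf, beside 4.4% of all genes lower. In IFNbeta 0 were lower. In the combination 4 were lower and 1 higher, with no share over all genes at hand. Their score was 7.60 (7.47 to 7.81) in the combination, 7.78 (7.64 to 7.96) in IFNbeta, 7.63 (7.57 to 7.69) in p19Arf and 7.81 (7.68 to 7.99) in eGFP tumors. The mast cell protease gene Cpa3 averaged 7.98 ± 0.44, 8.66 ± 0.63, 7.88 ± 0.41 and 8.95 ± 0.38 in the same order (SD, n = 5 each). The p19Arf arrays of Cpa3 (7.42 to 8.40) all lay below its eGFP arrays (8.43 to 9.47), a lack of overlap that 0.441% of all genes showed. The part of muscle and mast cell RNA in the values of Ccl17, Ccl22, Ccl8 and Ccl12 was not tested.

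Deviations of each array from its own group mean do not use the differences by which the genes were chosen, and they were correlated over the 20 arrays as a description. The highest r values among the 8 genes were within the neighbouring pairs Ccl2 and Ccl7, and Ccl17 and Ccl22. Ccl2 and Ccl7 gave Pearson r = 0.65 (Spearman 0.63), and 0.62 without the 2 arrays farthest from the median of Ccl2, and only 0.0552% of all genes had as high an r with Ccl2. Ccl17 and Ccl22 gave r = 0.61 (Spearman 0.49), and 0.456% of all genes had as high an r with Ccl17, but r was 0.35 without the 2 IFNbeta arrays at the ends of Ccl17, so it rests largely on them. After quantile normalization it was 0.54, level with Ccl17 and Ccl12 at 0.54, while Ccl2 and Ccl7 gave 0.74. Ccl8 and Ccl12 gave r = 0.46 (Spearman 0.53), or 0.38 without 2 arrays, which 15.6% of all genes matched with Ccl8.

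The array spread went with some of these genes. Its within-group r was 0.76 with Ccr2, 0.65 with Ccl12, 0.63 with Ccl8, 0.39 with Ccl17, 0.27 with Ccl22, 0 with Ccl2, -0.11 with Ccl7 and -0.67 with Ccr4, while the middle of all genes ran from -0.53 to 0.59. With the spread regressed out, Ccl2 and Ccl7 kept r = 0.66 and Ccl17 and Ccl22 r = 0.57, and Ccl8 and Ccl12 were at 0.09. Ccr4 and Ccl12, at r = -0.60, were at -0.28 with the spread regressed out and -0.10 after quantile normalization. Across the pairs, Ccl17 gave 0.50 with Ccl12 (0.33 without 2 arrays), 0.47 with Ccl8 (0.26 without 2 arrays), 0.10 with Ccl2 and -0.15 with Ccl7.

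**Figure D4:**
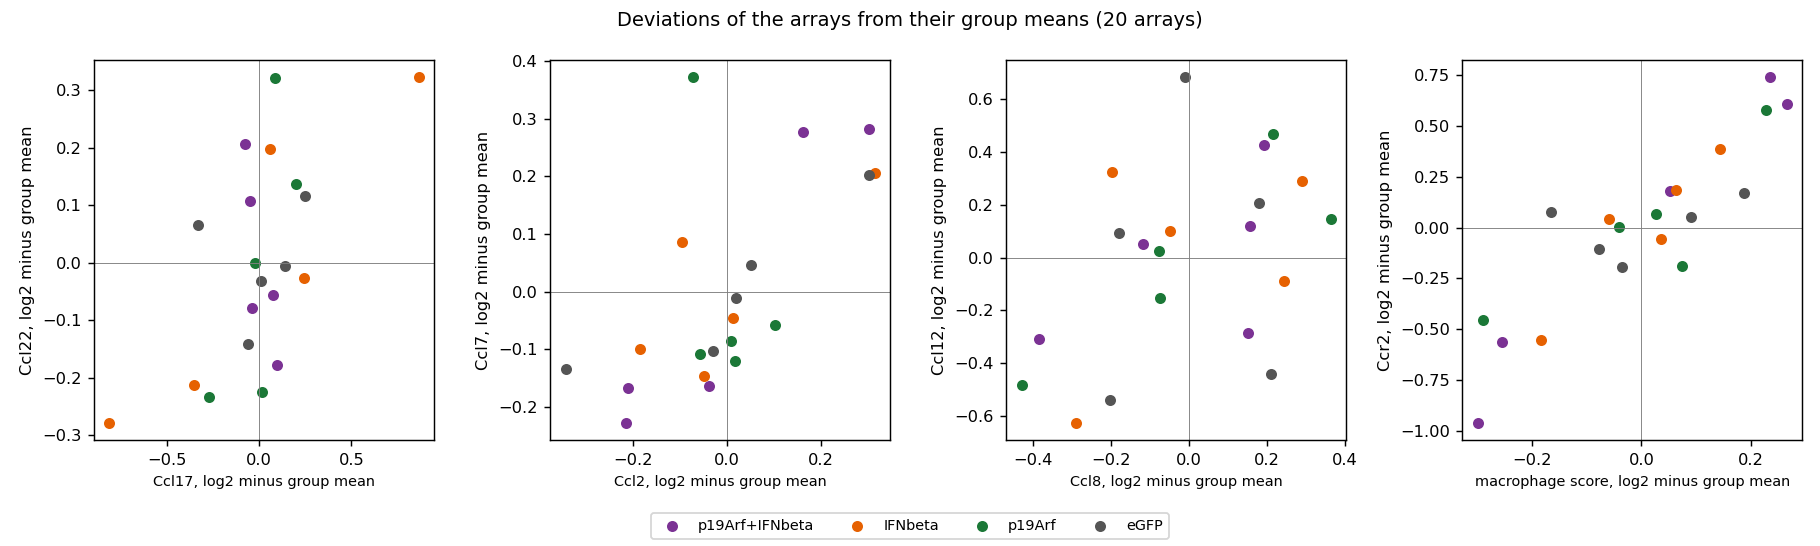
Deviation of each of the 20 arrays from its group mean, in log2 units, for Ccl22 against Ccl17, Ccl7 against Ccl2, Ccl12 against Ccl8, and Ccr2 against the macrophage marker score, coloured by group. The Pearson r values are 0.61, 0.65, 0.46 and 0.89, and in the Ccl17 panel the 2 points at the far left and far right are IFNbeta arrays.

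Ccr2 followed the macrophage markers. Its within-group r with their score was 0.89 (Spearman 0.83), 0.86 without 2 arrays, 0.73 with the spread regressed out and 0.83 after quantile normalization, and r was 0.66 with the monocyte score (0.41 with the spread regressed out) and 0.65 with fibroblast genes (0.53). The arrays share tumor make-up, so these values say that the scores varied together and no more. Ccl17, in contrast, had r = 0.23 with the macrophage score and 0.17 with dendritic cell markers, and Ccl22 had 0.28 and 0.37. With skin epidermis markers Ccl17 gave -0.63 (Spearman -0.31), or -0.25 without 2 arrays, and with the type I interferon score -0.56 (Spearman -0.39), or -0.31 without 2 arrays, both resting in part on IFNbeta replicate 3. Ccl8 gave -0.59 with the NF-kB list (Spearman -0.61, and -0.53 without 2 arrays) and 0.61 with adipocyte markers, the second of which was 0.46 with the spread regressed out. Ccl12 gave 0.69 with endothelial markers and -0.69 with epithelial genes, or 0.42 and -0.33 with the spread regressed out. Ccl7 gave 0.51 with the NF-kB list (0.21 without 2 arrays), and Ccl2 0.32.

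**Figure D5:**
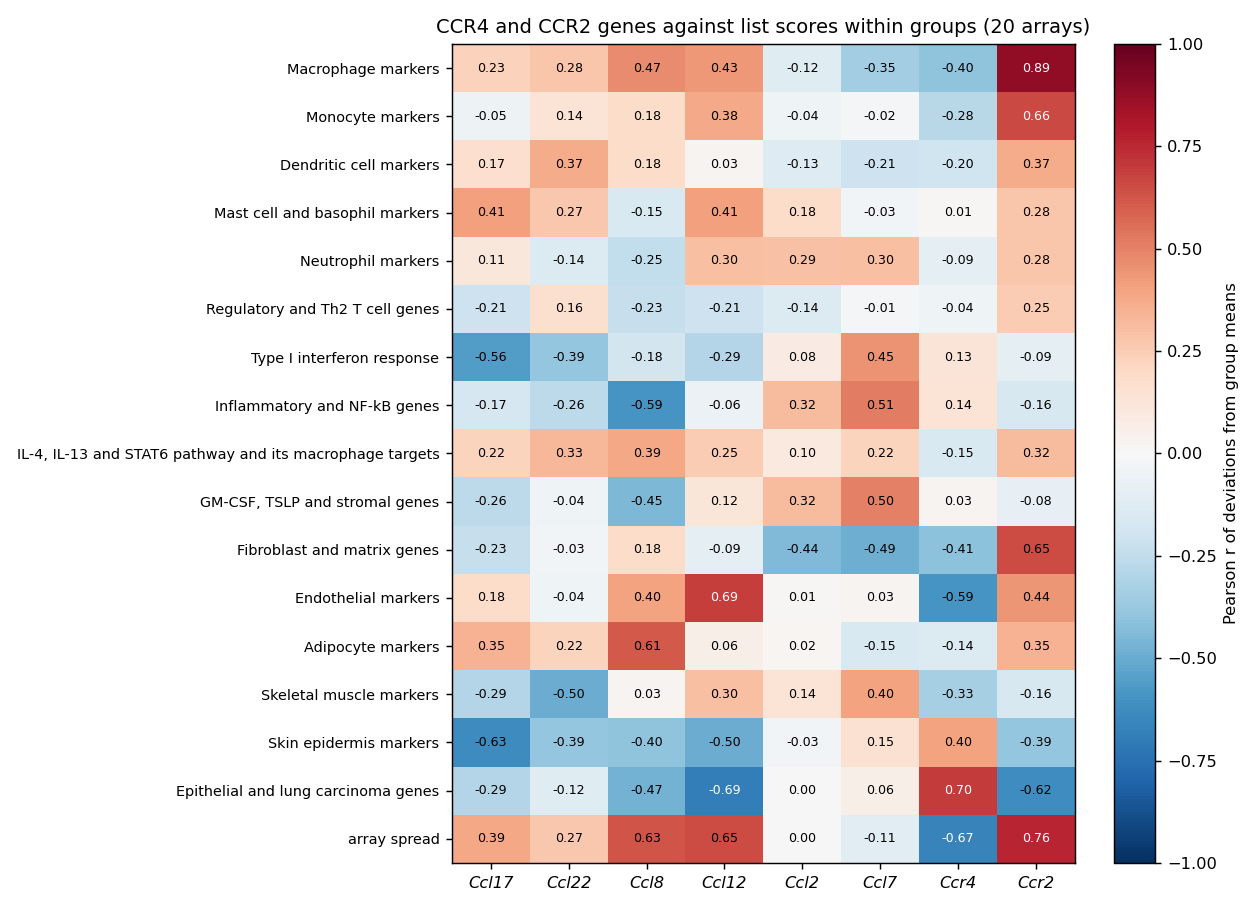
Pearson r between the within-group deviations of the 8 genes (columns) and of list scores or the array spread (rows) over 20 arrays, from blue at -1 to red at 1. The strongest cell is Ccr2 with macrophage markers at 0.89, and the columns of Ccl2 and Ccl7 differ from those of Ccl8 and Ccl12.

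The genes most like each of the 8 in these within-group deviations were taken by the highest r over the 20 arrays. For Ccl17 they were Grcc10 (r = 0.80), Ptchd1 (0.74), Ptrhd1 (0.73), Elof1 (0.72) and Spam1 (0.72), and for Ccl22 they were Fndc11 (0.79), Tcf7l2 (0.75), Elk1 (0.75), Nrgn (0.74) and Tmem37 (0.74). For Ccl2 they were Mgmt (0.74), Klk1b27 (0.73), Cyp2a12 (0.70), Tmed8 (0.70) and Scgb2b23-ps (0.69), and for Ccl7 Scgb2b23-ps (0.80), Prelid3a (0.79), Grina (0.77), Ccn2 (0.75) and Tgif1 (0.74), so Scgb2b23-ps stood in both lists. Ccl8 had Pcf11 (0.85), Appl1 (0.84), Mkln1 (0.84), Ube2b (0.84) and Fnbp1l (0.83), and Ccl12 had Pcbd1 (0.91), Wdr70 (0.90), Rabl2 (0.90), Rcor3 (0.90) and Acadsb (0.90). Ccr2 had Itga6 (0.94), Ms4a6b (0.93), AI504432 (0.93), Tlr8 (0.93) and Cct3 (0.92), and Ccr4 had Plxnb1 (0.94), Klrb1a (0.92), Hsf2bp (0.91), Otop1 (0.90) and Fbxo43 (0.90). The higher r values stand with Ccl12, Ccr2, Ccr4 and Ccl8, the 4 genes most tied to the array spread.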

How the data were processed

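Per the labels' protocols, Trizol was used to extract total RNA of the 20 tumors, which was labelled with biotin and read on Affymetrix arrays of 1 colour. The authors deposited 1 table of log2 values for 35556 probe sets. Per the submitters' processing notes, the tools were Affymetrix Expression Console and GCOS, with no versions, and how values were summarised or filtered is not given in the sources used. The log2 base was read from the range of the values. No normalization was added.

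Gene names come from the annotation of the platform, updated where the RefSeq table of mouse genes (GRCm38.p6) allowed. Exactly 1 symbol was paired with 21789 probe sets, several with 1621 and none with 12146, and 91 kept the annotation's own symbol. A gene with several probe sets was read by its brightest, judged by the mean over 20 arrays. That left 19938 genes, and no filter was set on low values.

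All 20 arrays entered 1 linear model of group means in limma 3.58.1 in R 4.3.3 (16 residual degrees of freedom, eBayes), after a check on simulated data, and 2-sided p-values were Benjamini-Hochberg adjusted over all genes of a comparison. List scores are means of log2 values. The 8 genes, the gene lists and the alternatives were chosen with earlier results of these data known. Named list genes are among the 3 with the smallest unadjusted p of a list in p19Arf or in IFNbeta against eGFP. Not all of those 3 are given for each list. For marker lists the rule named the 2 members of highest level, of which Lyz2 and Fn1 are given. Ccr8, Foxp3, Cpa3, the lung genes and genes shown for all 4 groups were chosen after their values were seen. Genes most alike leave out predicted genes and those of small RNAs. Alternatives were quantile normalization, median centring, trended and robust eBayes, array weights, the array spread as a covariate, a replicate block, no dim genes, 2 groups alone and each array left out.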

Additional observations from a re-analysis of the deposited data

Results flagged for a closer look

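An array was looked at again when its gap to the nearest other array of its group of 5 was large against the whole range of the group (Dixon's criterion). Of 120 groups examined 9 values met it, and chance gives about 1 in 20 groups, so these are not evidence of a pattern.

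For 2 of the 8 genes the value was in p19Arf. Ccr4 read 6.81 in p19Arf replicate 4, against 6.47 to 6.56 on the other arrays of that group. Ccl7 read 11.0 in p19Arf replicate 2, against 10.51 to 10.57 on the others.

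The other values were scores of gene lists or of whole arrays. The score of the other CC chemokines was 8.15 in IFNbeta replicate 4, against 8.27 to 8.30 on the other arrays. The B cell marker score was 7.93 in p19Arf replicate 3, against 6.57 to 6.95, and 7.43 in eGFP replicate 4, against 6.74 to 6.81. The fibroblast and matrix score was 9.76 in IFNbeta replicate 4, against 9.40 to 9.50. The skin epidermis score was 8.98 in IFNbeta replicate 3, against 6.43 to 6.63, and 7.35 in eGFP replicate 5, against 6.58 to 6.76. The array spread was 2.04 in IFNbeta replicate 3, against 2.12 to 2.15. IFNbeta replicate 3 is also the array with the lowest Ccl17 value of the 20, 7.02.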

How the results depend on the processing

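Over 669 alternative values of the 8 genes in the 3 tested comparisons, 1 passed at a limma adjusted p under 0.05 (Ccl7, IFNbeta against p19Arf, array weights, adjusted p = 0.0143) and 21 turned sign. With array weights 4495 of 19938 genes passed in that comparison. Leaving out 1 array at a time, Ccl17 in p19Arf against eGFP ran from -0.65 to -0.49 and Ccl12 from -0.73 to -0.43, and under the other settings from -0.57 to -0.42 and from -0.61 to -0.33, with adjusted p-values from 0.188 to 0.997 and from 0.16 to 0.997. Signs turned in IFNbeta against eGFP for Ccr4 (0.04 under quantile normalization) and, leaving out an array, for Ccl2 (-0.07 to 0.09) and Ccr4 (-0.08 to 0.01). They turned in p19Arf against eGFP for Ccr2 (0.02 under quantile normalization and array weights, 0.33 with the spread as a covariate, -0.17 to 0.09 leaving out an array). They turned in IFNbeta against p19Arf for Ccl22 (-0.01 under quantile normalization, -0.02 with array weights, -0.04 with the spread), Ccr4 (0.01 under quantile normalization), and with the spread Ccl12 (-0.05) and Ccr2 (-0.14). Leaving out an array gave -0.02 to 0.40 for Ccl17 and -0.06 to 0.11 for Ccl22 there. Of 884 values of the untested comparisons 2 moved by more than 1 SD, the combination against IFNbeta for Ccr4 (0 under quantile normalization) and the interaction for Ccl17 (-0.13 with array weights). Smaller than 1 SD, but over 1.5 times, were moves of the combination against IFNbeta with the spread as a covariate, to -0.06 for Ccl12, -0.01 for Ccl8 and 0.23 for Ccr2, and of the combination against eGFP, to -0.44 for Ccl12 with the spread and 0.06 for Ccl7 under quantile normalization. Why these values turned was not tested.

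Counts over all genes moved more. In IFNbeta against eGFP, array weights gave 5 genes past the adjusted p, 949 higher and 2172 lower at an unadjusted p under 0.05, against 0, 268 and 289. The spread as a covariate gave 452 higher and 635 lower, the 2 groups alone 498 and 624, and no dim genes 143 lower. Leaving out 1 array gave 0 past the adjusted p, 167 to 352 higher and 93 to 549 lower. In p19Arf against eGFP, array weights gave 1810 higher and 1912 lower, the spread 389 lower and no dim genes 244 higher, against 567 and 878. Leaving out 1 array gave 0 past the adjusted p, 303 to 1150 higher and 340 to 1877 lower. In IFNbeta against p19Arf the 5 genes past the adjusted p became 0 under quantile normalization, with the spread and with the 2 groups alone, 1 without dim genes and 4495 with array weights, and 0 to 28 leaving out 1 array. The 1691 higher and 2470 lower became 3213 and 4875 with array weights and 615 and 887 with the spread, and the lower 1540 under quantile normalization and 1227 without dim genes. Leaving out 1 array gave 768 to 3008 higher and 1134 to 3614 lower.

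Replicate numbers did not pair the arrays: same-numbered arrays correlated from -0.467 to 0.587 over 6 pairs of groups. With a replicate block Ccl17 in p19Arf against eGFP stayed at -0.56 (adjusted p = 0.726), and the IFNbeta against p19Arf count was 1. Other probe sets could not be tried, since each of the 8 genes has 1.

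Limits: the table gives no background estimate, 5 arrays per group set the precision, and labels do not say whether arrays are separate mice. All vector groups are compared with the same 5 eGFP arrays.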

Other observations

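Of the genes between or beside the 8 genes in the genome, Ccl11, Ccl1 and Ccr3 are given here. Their group means did not follow the order of the members next to them, although Ccl1 had the order of Ccr4. Cx3cl1 and other neighbours are not given. Ccl11, an eosinophil attractant between Ccl7 and Ccl12 on chromosome 11, averaged 8.54 ± 0.26 in the combination, 8.22 ± 0.20 in IFNbeta, 8.50 ± 0.16 in p19Arf and 8.37 ± 0.31 in eGFP tumors (SD, n = 5 each). Ccl1, on the far side of Ccl8, averaged 6.84 ± 0.18, 6.59 ± 0.11, 6.89 ± 0.18 and 6.77 ± 0.20 in the same order. Its difference between IFNbeta and p19Arf was -0.30 (SE 0.11, limma adjusted p = 0.205), while that of Ccl7 was 0.34. Ccr3, an eosinophil receptor beside Ccr2 on chromosome 9, averaged 6.68 ± 0.27, 6.75 ± 0.18, 6.78 ± 0.14 and 6.75 ± 0.17 in the same order. These genes were chosen by their place in the genome after their values were known, and no test sets them against the 8 genes.

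Of 16 macrophage markers 10 were lower and 6 higher in mean in the combination than in eGFP tumors. At a limma unadjusted p under 0.05, 4 were lower and 0 higher. Against IFNbeta tumors 5 were lower and 0 higher at that level, and against p19Arf tumors 2 were lower and 1 higher. None passed an adjusted p under 0.05 in these comparisons, and no share over all genes is at hand. Mrc1, the mannose receptor of tissue macrophages, averaged 10.62 ± 0.30 in the combination, 10.95 ± 0.28 in IFNbeta, 11.02 ± 0.26 in p19Arf and 11.14 ± 0.19 in eGFP tumors, and Cd163, a haemoglobin scavenger receptor, averaged 7.02 ± 0.22, 7.19 ± 0.19, 7.33 ± 0.37 and 7.46 ± 0.13 (SD, n = 5 each). Cd14, the lipopolysaccharide co-receptor, was higher in mean in the combination than in eGFP tumors, with 9.02 ± 0.41 in the combination, 8.90 ± 0.27 in IFNbeta, 8.62 ± 0.25 in p19Arf and 8.77 ± 0.26 in eGFP tumors, and so was Fcgr1, an IgG receptor, with 9.70 ± 0.50 in the combination, 10.02 ± 0.14 in IFNbeta, 9.39 ± 0.28 in p19Arf and 9.57 ± 0.18 in eGFP tumors. Plac8, a gene of inflammatory monocytes in another list, averaged 10.22 ± 0.24, 9.91 ± 0.63, 9.66 ± 0.60 and 9.19 ± 0.61. These 5 genes were picked after their values were seen, so the values are a description.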
